A study of Mus musculus with 4 samples.

Results

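Glycolysis splits glucose into pyruvate and recovers energy without oxygen, and endothelial cells are known to draw most of their energy from it even where oxygen is present. When pyruvate is turned into lactate, the cofactor that the pathway uses up is restored and the lactate is exported. In growing vessels, sprouting endothelial cells are known to raise glycolysis, and hypoxia-inducible factors are known to activate many genes of the pathway in low oxygen. The set described here is 10 such genes out of 21627 protein-coding genes on the autosomes and X, taken by name: the hexokinases Hk1 and Hk2, the regulator Pfkfb3, the enzymes Aldoa, Gapdh, Pgk1, Eno1, Pkm and Ldha, and the lactate transporter Slc16a3. For each, every peak overlapping the gene body or 10 kb on either side was collected, and peaks within 1 kb of a gene end were marked. All 10 were found in the RefSeq gene table, and no filter removed any.

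Accessible chromatin was measured by ATAC-seq, in which a transposase inserts adapters into open DNA, in endothelial cells sorted by FACS from retinas of C57BL/6 mice labelled P16, with 2000 cells per library. In 2 libraries the mice had the genotype Zeb1 knockdown, written Zeb1-CKO in the titles, and in the other 2 they are labelled control. Zeb1 is a zinc-finger repressor of transcription. The driver of the knockdown, the alleles of the control mice, and whether each library came from its own animal or from a pool are not given in the sources used here. The spread within a group may therefore be technical.

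The knockdown libraries held 13689 and 19886 peaks and the control libraries 7608 and 13672, for replicates 1 and 2 of each. The means were 16788 ± 4382 and 10640 ± 4288 peaks (SD, n = 2 each), with p = 0.333 in a two-sided exact permutation test, the smallest p that this design allows. For this reason no gene was tested between the groups, and each count is set beside its share among all genes. Read depth is unknown, so a missing peak may mean too few reads, and control 1 has by far the shortest list. Zeb1 itself had a gene-end peak in both knockdown libraries and in control 2, which does not check the labels, since a peak list cannot show whether the gene was deleted. Of 12 endothelial marker genes, 6 and 7 were open at a gene end in the knockdown libraries, against 3 and 6 in the controls. Cdh5, Cldn5 and Tie1 were open there in every library. Another 5, Pecam1, Tek, Erg, Emcn and Egfl7, had no gene-end peak in any library (51.5% of all genes). Over the gene and its flanks the endothelial counts were 12 and 12 in the knockdown libraries, against 9 and 12 in the controls. Markers of photoreceptors mostly followed the replicate number: 1 and 8 of 12 had a gene-end peak in knockdown replicates 1 and 2, against 1 and 9 in control replicates 1 and 2. Rom1 had one in all 4 libraries. Over the locus the photoreceptor counts were 5 and 12 in the knockdown libraries against 3 and 12 in the controls, with Nrl, Crx and Gnat1 at 0 in both replicate 1 libraries. By contrast, Prph2 and Rom1 had a locus peak in all 4 libraries, and Pde6b, Pde6g and Sag in all but control 1. Gene-end peaks at 8 markers each of other cells numbered 2 and 3 in the knockdown libraries against 3 and 2 in the controls for glia, and 0 and 1 against 0 and 1 for mural cells. They numbered 0 and 1 against 1 and 0 for leukocytes, and 1 and 1 against 1 and 1 for inner neurons. Over the locus these counts were 4 and 5 in the knockdown libraries against 3 and 3 in the controls for glia, and 1 and 4 against 0 and 1 for mural cells. For leukocytes they were 3 and 4 against 4 and 3, and for inner neurons 1 and 2 against 3 and 2.

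Most of the 10 members had open chromatin at a transcription start in both groups. RefSeq lists 18 starts for the 10 genes. A peak lay within 1 kb of at least 1 of them for 9 and 9 genes in the knockdown libraries, against 7 and 8 in the controls. Among all 17273 genes with a listed start these shares were 42.2% and 47.8% in the knockdown libraries, against 23.5% and 41.3% in the controls. The 7 genes Hk1, Pfkfb3, Aldoa, Gapdh, Pgk1, Eno1 and Pkm had such a peak in all 4 libraries, a pattern shown by 22.6% of all genes. In control 1 those of Pfkfb3, Pgk1, Eno1 and Pkm were weak and fell below the stricter cut, a −log10 q of 3. Hk2 was open at its start in both knockdown libraries and neither control, which holds for 3.99% of all genes. Ldha lacked a start peak in control 1 alone (13.4% of all genes), and Slc16a3 had none at its start in any library (49% of all genes). A peak's strength is given as its percentile from the top of its own library's list, ranked by the authors' −log10 p, so that a low percentile is a strong peak. Without control 2, Ldha joined Hk2 and made 2 genes with start peaks in the knockdown libraries alone.

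**Figure D1:**
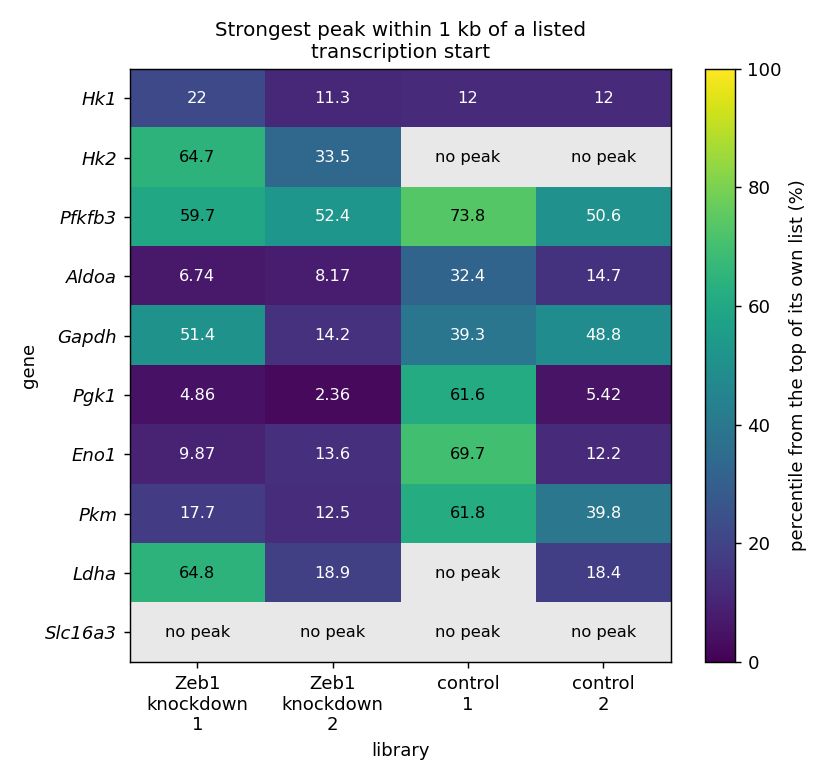
Rows are the 10 genes, columns the 4 libraries, and each cell gives the place of the gene's strongest peak within 1 kb of a listed start, as a percentile from the top of that library's own list (low is strong; grey is no peak). Pgk1 stands at 4.86 and 2.36 in the knockdown libraries and at 61.6 and 5.42 in the controls, and Hk2 has peaks in the knockdown libraries only.

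The promoter sequences below are those the comparison turns on: Hk2, which was open in the knockdown libraries alone, Ldha, which control 1 lacked, Pgk1, which was among the strongest peaks of 3 libraries, Pfkfb3, whose downstream start was open in all 4, and Slc16a3, which had no peak there. Each is the 250 bases before a start listed by RefSeq (GRCm38.p6, the assembly of mm10), written 5′ to 3′ on the gene's strand. Capitals mark ACGTG and GCGTG, the core letters of the hypoxia response element, on either strand. CACCTG, the E2-box letters that Zeb1 is known to bind, is in none of the 5 on either strand.
Hk2 (chr6:82774455-82774704, minus strand): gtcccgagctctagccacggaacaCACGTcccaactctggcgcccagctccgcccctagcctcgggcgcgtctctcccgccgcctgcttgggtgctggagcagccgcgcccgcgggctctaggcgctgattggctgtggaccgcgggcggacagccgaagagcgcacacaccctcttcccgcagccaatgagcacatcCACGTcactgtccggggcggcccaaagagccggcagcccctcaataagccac
Pfkfb3, downstream start (chr2:11502091-11502340, minus strand): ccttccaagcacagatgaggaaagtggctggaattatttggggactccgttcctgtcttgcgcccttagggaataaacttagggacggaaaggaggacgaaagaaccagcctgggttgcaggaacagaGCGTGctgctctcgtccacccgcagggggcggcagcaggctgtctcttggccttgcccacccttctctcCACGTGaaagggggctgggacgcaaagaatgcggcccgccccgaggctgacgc
Pgk1 (chrX:106186850-106187099, plus strand): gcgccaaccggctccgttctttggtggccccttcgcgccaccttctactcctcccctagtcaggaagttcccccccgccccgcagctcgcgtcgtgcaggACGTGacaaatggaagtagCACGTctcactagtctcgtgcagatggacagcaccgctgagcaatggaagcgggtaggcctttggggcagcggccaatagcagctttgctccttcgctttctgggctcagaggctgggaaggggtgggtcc
Ldha, upstream start (chr7:46845554-46845803, plus strand): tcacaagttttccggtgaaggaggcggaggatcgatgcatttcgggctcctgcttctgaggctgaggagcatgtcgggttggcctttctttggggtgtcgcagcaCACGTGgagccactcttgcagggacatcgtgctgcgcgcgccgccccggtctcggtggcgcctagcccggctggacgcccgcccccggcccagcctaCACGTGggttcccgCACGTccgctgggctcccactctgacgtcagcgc
Slc16a3 (chr11:120948817-120949066, plus strand): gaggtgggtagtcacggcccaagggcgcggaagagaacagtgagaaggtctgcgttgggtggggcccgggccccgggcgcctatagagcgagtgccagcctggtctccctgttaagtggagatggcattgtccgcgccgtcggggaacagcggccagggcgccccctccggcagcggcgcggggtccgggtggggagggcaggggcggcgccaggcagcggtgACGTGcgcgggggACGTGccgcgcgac

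The core letters of the hypoxia response element stood in 15 of the 18 promoter windows of the members, and in at least 1 window of each of the 10 genes. The share of genes with at least 1 such window was not taken over all genes. Over 21044 windows of all genes, 44.4% held ACGTG or GCGTG, and 62.2% of the 9541 windows overlapped by a peak did. Of the 14 member windows overlapped by a peak, 13 held them. The members' windows were also richer in G and C, with a median of 64.6% against 55.6% over all windows. Among windows overlapped by a peak the medians were 66.8% for the members and 62.0% for all. Neighbouring windows of Aldoa and of Eno1 share most of their letters. Ldha held 5 matches at its upstream start, where each CACGTG counts once per strand, with matches between 145 and 30 bases before the start. In Hk2 the matches lay 226 to 222 and 52 to 48 bases before the start, the nearer one close to a CCAAT match on the plus strand at 66 to 62 bases. In Slc16a3 they lay 27 to 23 and 14 to 10 bases before the start. CACCTG was found in 1 member window, that of the downstream start of Ldha, against 17.0% of all windows, and TATAAA in 0 against 11.7%. CCAAT stood in 7 of the 18 windows, against 35.6% of all. A match of letters is not a measured binding site.

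The hexokinases trap glucose in the cell by phosphorylating it, and the pair differed in their peaks. Hk1, the widely expressed form (chromosome 10, 62268855 to 62379920), had 3 and 4 peaks over its locus in the knockdown libraries, against 2 and 4 in the controls. The peak in all 4 libraries covered the downstream of its 2 listed starts, 39248 bp from the nearest gene end, at percentiles 22.0 and 11.3 in the knockdown libraries, against 12.0 and 12.0 in the controls. It was 1290 and 1328 bp wide in the knockdown libraries, against 475 and 477 bp in the controls, and reached 1038 and 1124 bp past the start against 397 and 310 bp. The noncoding gene Hk1os has an end under the same peak, so the signal cannot be assigned to either. Widths were not compared between the libraries over all genes, and read depth is unknown. At the starts of Gapdh and Pkm and the downstream start of Pfkfb3, the widest peak was that of control 2. The start at the outer end of Hk1 had no peak in any library. A further region inside the gene, 39723 bp from the nearest listed start, was also held by all 4 libraries, at percentiles 30.0 and 8.8 in the knockdown libraries, against 70.1 and 45.8 in the controls. In the flank, 6900 bp from the gene's end, a region was held by the knockdown libraries alone, at percentiles 90.3 and 40.4. It lies inside the neighbouring gene Tacr2, 4035 bp from an end of that gene.

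Hk2 (chromosome 6, 82725025 to 82774454), the inducible hexokinase and a known target of hypoxia-inducible factors, had 1 peak in each knockdown library and 0 in each control over the gene and its 10 kb flanks. It was the single member held by the knockdown libraries alone, 1 of 10 both at gene ends and over the locus, where the shares among all genes are 3.8% and 3.96%. The peak of knockdown 1 ran from 82773632 to 82774605 and that of knockdown 2 from 82774407 to 82774752, and both covered the listed start. In knockdown 1 it was 974 bp wide and reached 822 bp into the gene, and in knockdown 2 it was 346 bp wide and reached 298 bp upstream. Both were modest peaks in their lists: the authors' fold enrichment was 4.39 and 5.78, the −log10 q 3.31 and 5.75, and the percentile from the top 64.7 and 33.5. That this held within each replicate number follows from the pattern itself and adds no support. With only the 7608 strongest peaks of each library the pattern was lost, because the peak of knockdown 1 lies outside them. Without control 2, Pfkfb3 joined Hk2 at gene ends and Ldha over the locus, which made 2 genes in each window. Both came from the genes held by all but control 1, which are 12.6% of all genes at gene ends and 16.3% over the locus.

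Pfkfb3 (chromosome 2, 11471430 to 11554071) makes the sugar bisphosphate that activates phosphofructokinase, and in mice it is known to be needed for vessel sprouting. Over its locus it had 3 and 6 peaks in the knockdown libraries, against 1 and 3 in the controls. The outer start was covered in both knockdown libraries, at percentiles 98.9 and 52.4, and in control 2 at 59.9, with none in control 1. The downstream start was covered in all 4 libraries, at 59.7 and 81.6 in the knockdown libraries, against 73.8 and 50.6 in the controls. These peaks were 940 and 1465 bp wide in the knockdown libraries, against 200 and 1501 bp in the controls, and reached up to 1398 bp into the gene. An end of the noncoding gene Gm52500 lies under them. A region inside the gene, 18091 bp from the outer start, was stronger than either start in the 3 libraries that held it, at 44.9 and 24.9 in the knockdown libraries, against 18.2 in control 2. Another 3 small regions were listed in knockdown 2 alone, all at percentiles from 85.9 to 90.7, the nearest of them 199 bp from an end of the noncoding gene Gm10851.

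**Figure D2:**
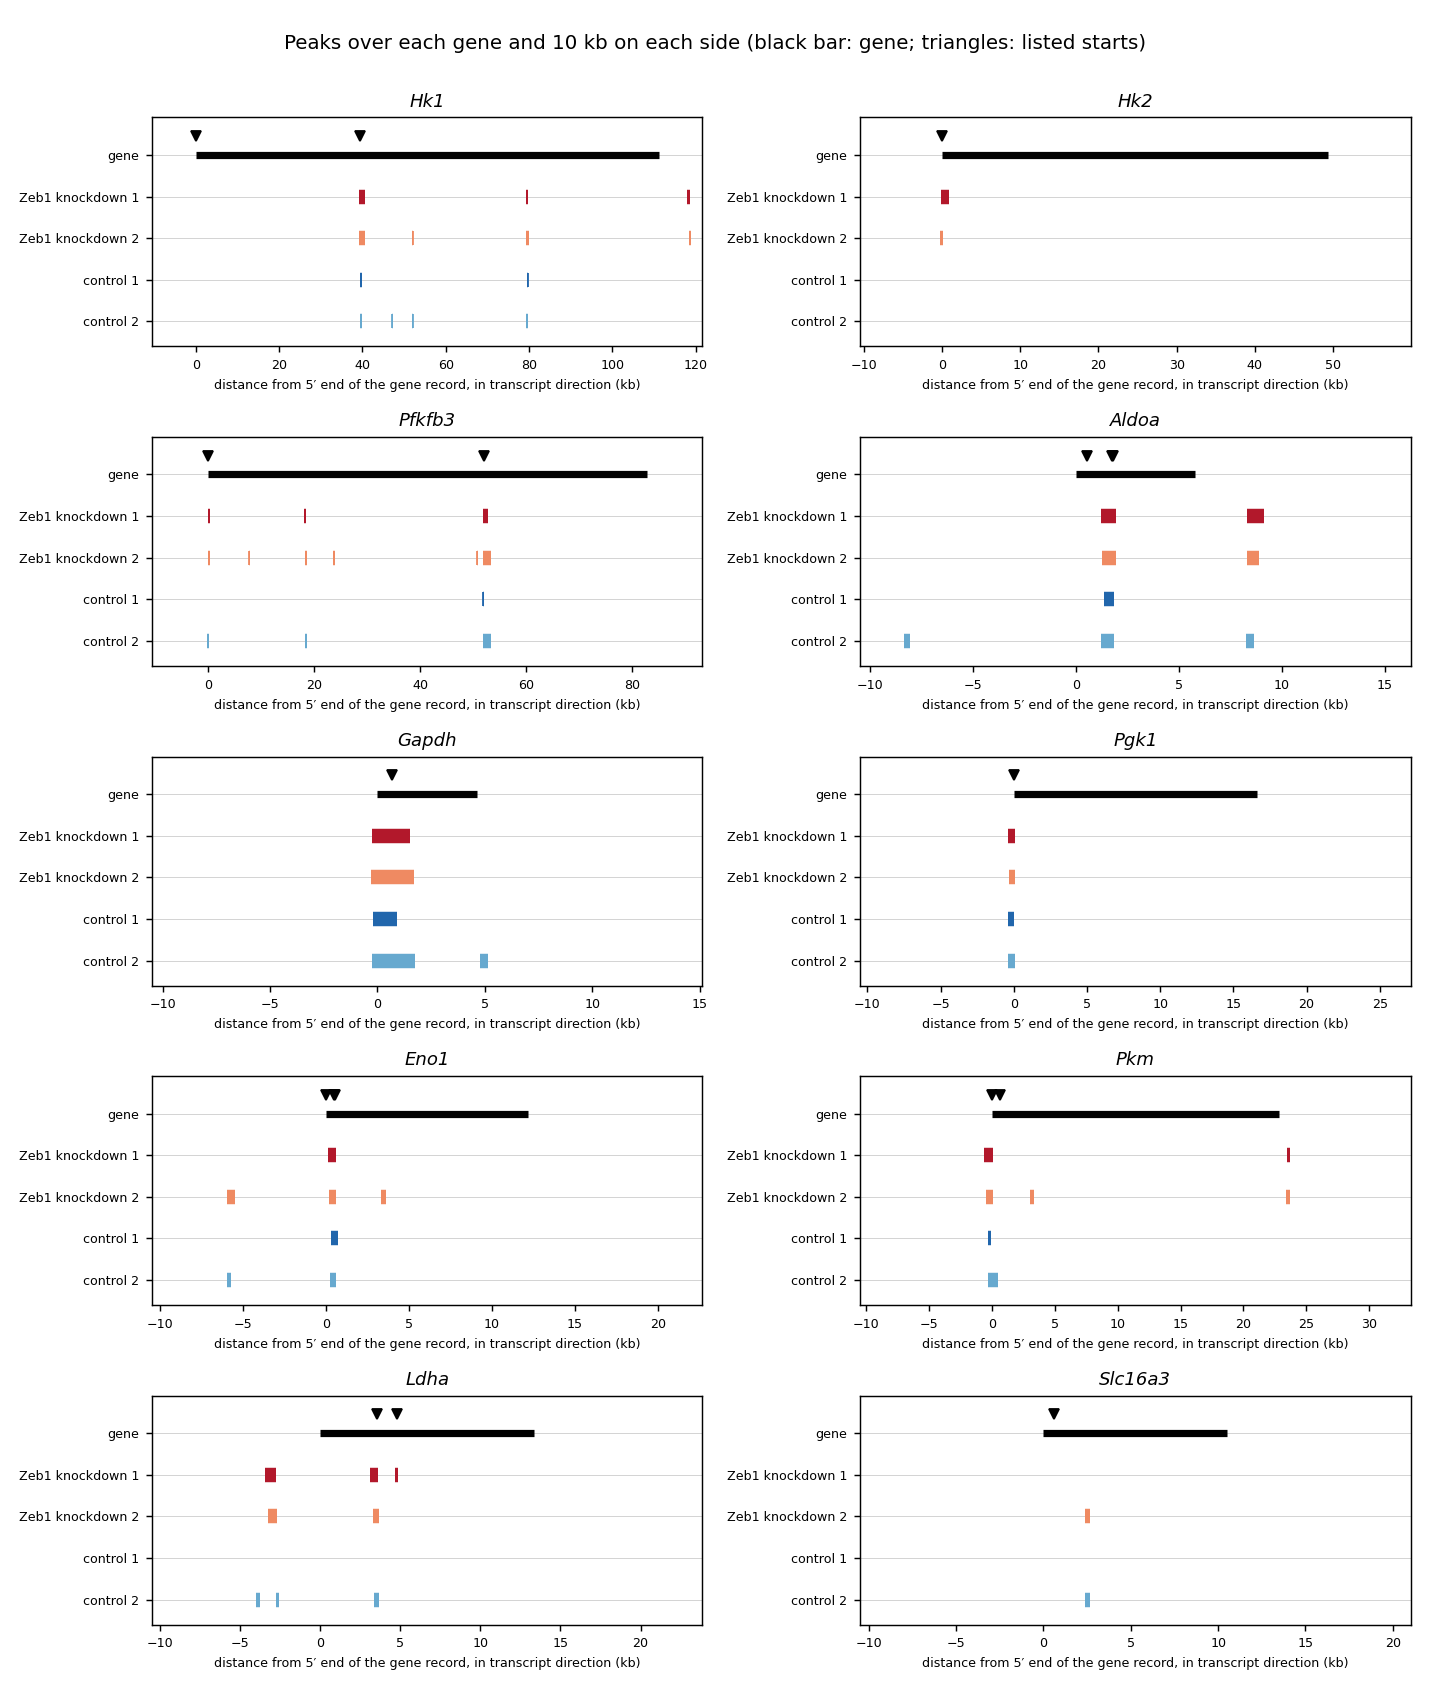
Each panel is 1 gene with 10 kb on each side; the x axis is the distance in kb from the 5′ end of the gene record in the direction of transcription, the black bar the gene and the triangles its listed starts. Coloured marks are the peaks of each library, narrow ones drawn at a minimum width. Most genes have a peak at a listed start in each library, while Hk2 has marks in the knockdown rows alone. Peaks over 1 kb from any listed start number 6 of 17 and 14 of 24 in the knockdown libraries, against 1 of 8 and 11 of 20 in the controls.

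Among the members, Aldoa, Gapdh, Pgk1, Eno1 and Pkm had a peak within 1 kb of a listed start in every library. Aldoa (chromosome 7, 126795234 to 126800994), the aldolase that cleaves the sugar bisphosphate, was covered at the 2 inner of its 3 listed starts. These peaks lie 1203 bp or more from either gene end and so outside the gene-end windows. Its start peaks stood at 6.74 and 8.17 in the knockdown libraries, against 32.4 and 14.7 in the controls. The outermost listed start of Aldoa had no peak overlapping the 250 bases before it. A region 2497 bp from the gene, in all libraries but control 1, overlaps an end of Ppp4c and cannot be given to Aldoa.

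Gapdh (chromosome 6, 125161852 to 125166467), the dehydrogenase that yields reduced cofactor, had the widest start peaks of the set. They were 1772 and 1967 bp wide in the knockdown libraries, against 1109 and 2002 bp in the controls, where the median peak of a library was 343 to 445 bp. They extended 947 and 975 bp upstream and 824 and 991 bp downstream of the start in the knockdown libraries, against 893 and 948 bp upstream and 215 and 1053 bp downstream in the controls. Their percentiles were 51.4 and 14.2 in the knockdown libraries, against 39.3 and 48.8 in the controls. A further peak at the far end of Gapdh, in control 2 alone, lies inside Iffo1, 86 bp from an end of that gene.

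Pgk1 (chromosome X, 106187100 to 106203699), the kinase of an energy-yielding step, had exactly 1 peak per library, all at its start. They were 503 and 421 bp wide in the knockdown libraries, against 379 and 478 bp in the controls, and lay mostly upstream, reaching 405 and 360 bp before the start against 368 and 401 bp. Pgk1 held the strongest start peak of the set in 3 libraries, at 4.86 and 2.36 in the knockdown libraries and 5.42 in control 2, but stood at 61.6 in control 1. Eno1 (chromosome 4, 150236708 to 150248879), an enolase, stood at 9.87 and 13.6 in the knockdown libraries, against 69.7 and 12.2 in the controls. Its peaks covered the 2 inner of its 3 listed starts. Besides these, Eno1 had a region 5491 bp upstream in both replicate 2 libraries and a region inside the gene in knockdown 2.

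Pkm (chromosome 9, 59656576 to 59679372), the pyruvate kinase, stood at 17.7 and 12.5 in the knockdown libraries, against 61.8 and 39.8 in the controls. The peak of control 1 ended 104 bp short of the outer start, and that of control 2 reached 501 bp past it. An end of the noncoding gene Gm51708 lies 39 bp from this region. At the far end of Pkm, a region from 59679966 to 59680318 was held by the knockdown libraries alone, at percentiles 91.8 and 48.8. It lies 594 bp from the end of Pkm and inside Gramd2, 133 bp from an end of that gene, so it cannot be given to Pkm.

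**Figure D3:**
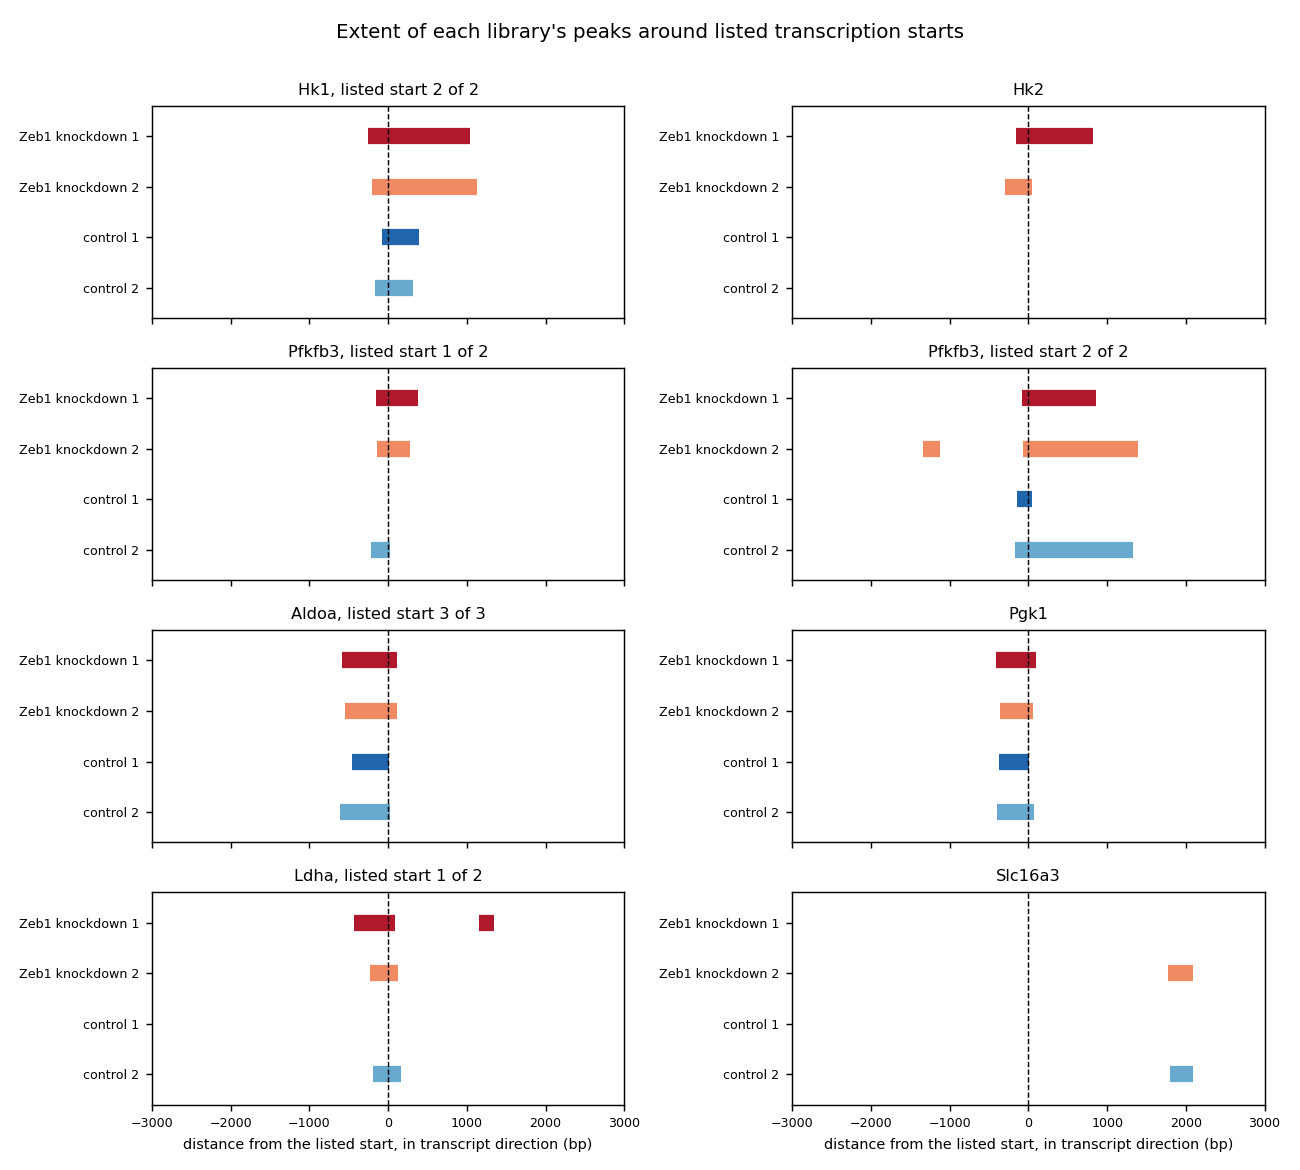
Bars show the extent of each library's peaks within 3000 bp of a listed start (dashed line), with distance in bp in the direction of transcription and the knockdown libraries above the controls. Peaks of Pgk1 lie mostly before the start, those of Pfkfb3 at its downstream start run into the gene, and no library has a peak at the start of Slc16a3.

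At the lactate end of the pathway, neither gene had a start peak in all 4 libraries. Ldha (chromosome 7, 46842274 to 46855627), which turns pyruvate into lactate, had 3 and 2 peaks over its locus in the knockdown libraries, against 0 and 3 in the controls. Its upstream listed start was covered at percentiles 64.8 and 18.9 in the knockdown libraries and at 18.4 in control 2. A peak at its downstream start was listed in knockdown 1 alone, at 65.0. These starts lie over 3 kb inside the gene record, so the gene-end windows of Ldha held no peak in any library. Upstream of the gene, a region 2582 bp from its end was held by the same 3 libraries, at 92.7 and 97.2 in the knockdown libraries, against 52.0 in control 2.

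Slc16a3 (chromosome 11, 120948484 to 120959000), the transporter that exports lactate from glycolytic cells, had 0 and 1 peaks in the knockdown libraries, against 0 and 1 in the controls. The region, from 120950845 to 120951162, lies inside the gene 1778 bp past the start and followed the replicate number, at percentile 34.1 in knockdown 2, against 25.4 in control 2. This pattern is found over the locus of 3.19% of all genes. In these libraries, photoreceptor marker genes with a gene-end peak numbered 1 and 8 in knockdown replicates 1 and 2, against 1 and 9 in control replicates 1 and 2, and whether they have a part in this region was not tested. In a sorted pool, a smaller number of cells with an open site and less opening per cell cannot be told apart.

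Merging the peaks of the 4 libraries gave 29 regions over the 10 loci. Of these, 8 were held by all 4 libraries, 5 by all but control 1, 3 by both knockdown libraries and neither control, and 0 by both controls and neither knockdown library. These were 27.6%, 17.2%, 10.3% and 0% of the 29, against 20.3%, 16.6%, 10.1% and 0.158% of all 25263 merged regions. The 3 regions of the knockdown libraries alone were the start of Hk2, the far end of Pkm within Gramd2 and the flank of Hk1 within Tacr2. Another 3 were held by both replicate 2 libraries alone (7.66% of all regions), and 10 were held by a single library. Of the 11 regions within 1 kb of a listed start, 7 were held by all 4 libraries, and of the 10 inside gene bodies 1 was. The counts rest on single libraries. Without control 1, 13 regions were held by all remaining libraries and 4 by the remaining control alone. Without control 2, or without knockdown 1, regions of the knockdown side alone numbered 8 instead of 3. The same counts over all regions were not taken. With all 4 libraries, 16.6% of all regions were held by all but control 1 and 22.6% by knockdown 2 alone.

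The start peaks of these genes ranked high in 3 libraries and low in control 1. Their median percentile was 22.0 and 13.6 in the knockdown libraries (9 genes each), against 61.6 and 16.5 in the controls (7 and 8 genes). For all genes with a start peak the medians were 37.6 and 31.7 in the knockdown libraries, against 36.3 and 36.4 in the controls. For the 7 members with a start peak in all 4 libraries, the medians were 17.7 and 12.5 in the knockdown libraries, against 61.6 and 14.7 in the controls. The same medians over the 3903 genes with that pattern were 19.9 and 14.1 in the knockdown libraries, against 34.8 and 19.8 in the controls. Control 1 held the weakest of the 4 percentiles for 5 of the 7 members and for 60.8% of those genes. Percentiles belong to each list and do not measure a change between libraries.

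**Figure D4:**
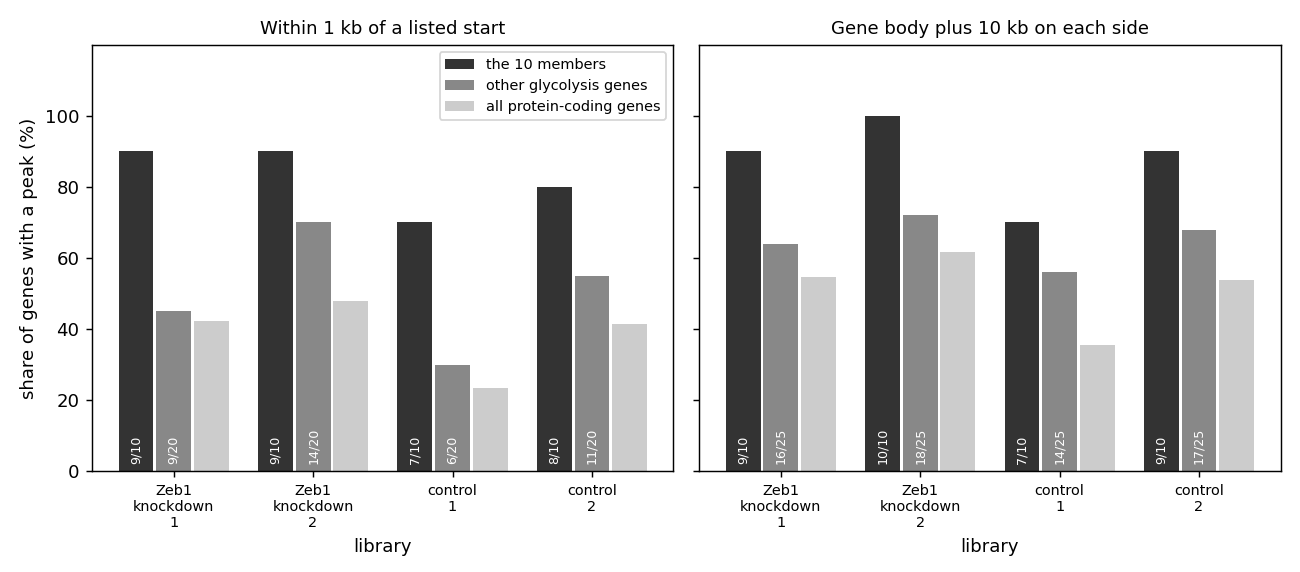
Bars give the share of genes (%) with a peak in each library, within 1 kb of a listed start (left) and over the gene and 10 kb on each side (right), for the 10 members, the other glycolysis genes and all protein-coding genes, with counts printed in the bars of both gene lists. The members stand at 9, 9, 7 and 8 of 10 at starts, above the bars of all genes in each library.

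Over the gene body and its flanks, 9 and 10 of the 10 members had a peak in the knockdown libraries, against 7 and 9 in the controls. Among all genes these shares were 54.6% and 61.7% in the knockdown libraries, against 35.4% and 53.9% in the controls. The median gene length was 14977 bp for the members and 17300 bp for all genes, but Hk1, Pfkfb3 and Hk2 are 111066, 82642 and 49430 bp long. Listed starts numbered 18 for the 10 members and 21044 for 17273 genes. Whether gene length or the number of starts has a part in these shares was not tested. In all 4 libraries 7 members were held over the locus (32.1% of all genes) and 4 at a gene end (20.9% of all genes), namely Gapdh, Pgk1, Eno1 and Pkm. At gene ends the members numbered 6 and 6 in the knockdown libraries, against 4 and 5 in the controls. The gene-end shares of all genes were 39.5% and 45.2% in the knockdown libraries, against 22.0% and 38.5% in the controls. The gene-end counts miss Hk1, Aldoa and Ldha, whose open starts lie inside the gene record.

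Of 25 other genes of glucose uptake, glycolysis and lactate handling, 9 and 13 were open at a gene end in the knockdown libraries, against 6 and 10 in the controls. These were 36% and 52% against 24% and 40%. Among all genes the shares were 39.5% and 45.2% in the knockdown libraries, against 22.0% and 38.5% in the controls. Of the 20 with a listed start, 9 and 14 had a peak within 1 kb of one in the knockdown libraries, against 6 and 11 in the controls. In all 4 libraries 5 of these 20 did, or 25%, against 22.6% of all genes. None of the 25 was held at a gene end, or over the locus, by the knockdown libraries alone (3.8% and 3.96% of all genes) or by the controls alone (0.0324% and 0.19%). Those open in all 4 libraries at a gene end were 5 (20.9% of all genes): Slc2a1, the glucose transporter of the blood-retina barrier, Pfkl and Pfkp, which are phosphofructokinase subunits, the mutase Pgam1, and Bsg, a chaperone of lactate transporters. Another 6 had no peak over the locus in any library (34.2% of all genes), and most of these are known from other tissues. They included Pklr, the liver form of pyruvate kinase, the muscle mutase Pgam2, Pfkfb1, Hkdc1, which neighbours Hk1, and the transporter Slc16a7. Picked after its values were seen, Ldhb, the other main lactate dehydrogenase subunit, was open at a gene end in both replicate 2 libraries alone (2.92% of all genes), the pattern of the region inside Slc16a3. Without control 1, 9 of the 25 were open at a gene end in all remaining libraries. Without control 2, 4 counted for the knockdown libraries alone, and without knockdown 1, 2 did. Of all genes, 12.6% were held at a gene end by all but control 1, and 4.32% by knockdown 2 alone. The former join the genes of the knockdown libraries alone without control 2, the latter without knockdown 1.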

How the data were processed

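ATAC-seq peaks of 4 libraries were analysed, 2 Zeb1 knockdown and 2 control, grouped and numbered by their titles. The deposited files are broad peak lists on mm10, 1 per library. The submitters' processing notes name Trimmomatic 0.36 and Bowtie2 2.3.2, also SAMtools 1.3 with Picard 2.9.2, as well as MACS2 2.1.1 and bedtools 2.26.0, with no roles. Settings, and any read shift for the transposase, are not given in the sources used here. Per the deposited broad peak layout, a peak carries its fold enrichment (ratio to background in that library), −log10 p, −log10 q (all above 1) and a score derived from the q-value. Because each list was called alone, these values of the authors were used only to rank or filter within a list, by −log10 p for percentiles. Depth is unknown.

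Python 3.11.15 with pandas 2.3.3 was used. Genes came from RefSeq on GRCm38.p6 (gene ends, no exons) and starts from its promoter table, which covers 17273 of 21627 protein-coding genes and all 10 members. An overlap of 1 bp counted, and peaks that overlapped or touched were merged. The starts inside gene records were added after seeing the data. The members and lists were chosen with earlier results of these data known. The text names all members, other glycolysis genes by pattern, and neighbours within 1 kb of a counted peak. Tacr2, Ldhb, Nrl, Crx, Prph2, Rom1, Pde6b, Pde6g and Sag were added after their values were seen. So were Pecam1, Tek, Erg, Emcn and Egfl7. No test was run on members. Alternatives were a stricter q, equal list lengths, other windows and overlaps, and leaving out each library. The overlap functions were tested on simulated peaks. The result of 1 listed gene is not reported here.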

Additional observations from a re-analysis of the deposited data

How the results depend on the processing

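Hk2 was the single member open in the knockdown libraries alone, at gene ends, at its start and over the locus, with a −log10 q of at least 3, with other windows (gene-end and start windows of 3 kb, the gene body alone, 50 kb flanks) and when 50% of a peak had to lie in the window. Of these settings, the stricter q, the gene body alone and the 50% rule can only take peaks away. They could not have given Hk2 a control peak. With equal lists of 7608 peaks the counts at gene ends, at starts and over the locus were 0 each, because the peak of knockdown 1 ranked too low. In the same setting 0 regions were held by the knockdown libraries alone and 1 by the controls alone, the downstream start of Pfkfb3. There too the knockdown peaks ranked too low to be kept, at percentiles 59.7 and 81.6 of their full lists. Under that stricter q fewer peaks remained. Members in all 4 libraries then numbered 1 at gene ends, 3 over the locus and 3 at starts. Regions in all 4 numbered 3, regions of the knockdown libraries alone 1, and other glycolysis genes in all 4 at gene ends 2. At starts, Pfkfb3, Pgk1, Eno1 and Pkm dropped out through control 1 alone, where their −log10 q was 1.89, 2.34, 2.05 and 2.32. With gene bodies alone 1 region was held by the knockdown libraries alone, and with 50 kb flanks 15 were held by all 4. Leaving out each library in turn gave 1 to 2 members for the knockdown libraries alone at gene ends, 1 to 2 over the locus and 1 to 2 at starts. Over the loci it gave 3 to 8 regions for the knockdown libraries alone, 0 to 4 for the controls alone and 8 to 13 for all remaining libraries. For the other glycolysis genes at gene ends it gave 0 to 4 for the knockdown libraries alone and 5 to 9 for all remaining ones. With a library left out, the same counts were not taken over all genes or all regions. No paired analysis was possible because the results are counts of peaks present or absent that come from no test, and the strengths in a list are relative to its own library. That Hk2 had a peak in the knockdown library and none in the control within each replicate number follows from its pattern. Unknown depth limits every absent peak, most of all in control 1.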
